A study of Mus musculus with 49 samples.

Results

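Pause release and elongation factors were followed as transcripts in single late 2-cell mouse embryos in which TBP or FOXJ3 had been depleted (loss of function, LOF). The 10 genes were chosen by name among the 54838 genes of the tables: Cdk9, Ccnt1, Ccnt2 and Hexim1 of the kinase P-TEFb and its inhibitory complex, Supt4a and Supt5 of DSIF, Nelfa, Nelfb and Nelfe of NELF, and Supt6. All embryos were F1(C57BL/6JxCBA/H), received mCherry-Trim21 mRNA 4 h after an antibody, and were taken at 48 h post-hCG. In this procedure, Trim-Away, the ubiquitin ligase TRIM21 drives the degradation of the protein that the injected antibody binds. Groups were TBP LOF (TBP antibody, 9 embryos) with a mouse IgG CONTROL (10 embryos), and FOXJ3 LOF (FOXJ3 antibody, 17 embryos) with a rabbit IgG CONTROL (13 embryos), the last pair in 2 library batches. These numbers are those of the labels, and the methods of the study give the sizes of the TBP LOF group and its CONTROL the other way round. Which embryo belongs to which group was taken from the labels alone. Per the labels, the TBP embryos came from separate collections and were processed at once, and the labels do not tie embryos to collections. CONTROL embryos carry the IgG and the TRIM21 mRNA as well, so that both arms of a comparison share the injections. After quality control 9, 9, 16 and 13 embryos remained, with 1103569 to 5434808 counted reads each.

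RNA polymerase II often halts a short way into a gene. DSIF (SPT4 and SPT5) and NELF hold it there, and P-TEFb, made of the kinase CDK9 and a T-type cyclin, phosphorylates both and the polymerase so that NELF leaves and elongation begins. HEXIM1 with the 7SK RNA keeps P-TEFb inactive, and SPT6 travels with the elongating polymerase as a histone chaperone. In the mouse 2-cell embryo the major wave of zygotic genome activation takes place, and TBP is the general factor that binds core promoters.

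All 10 genes were read in every one of the 47 embryos that passed and entered every test. The reads come from transcript 5′ ends and were counted by the authors per gene, so a value is a number of reads, scaled here to the embryos of its experiment (normalised count). TBP embryos were scaled by the ERCC RNA added to each lysate, so their values follow the amount of transcript per embryo. Each library held a whole embryo, and less RNA per blastomere cannot be told apart from fewer blastomeres lysed. The share of reads on ERCC was 4.29 ± 1.19% (SD, n = 9) after TBP LOF against 2.76 ± 0.372% in CONTROL (SD, n = 9). The means differed (exact two-sided permutation, p = 0.000823, adjusted p = 0.00494 over 6 quality measures). Single embryos ran from 2.67 to 6.12% in LOF and from 2.22 to 3.25% in CONTROL. Over all genes tested, log2 fold changes had a median of -0.70 on this scale and 0.13 when TMM, which removes a shift shared by most genes, took its place. Tbp mRNA, the targeted gene's own transcript, changed by -2.14 (log2) in TBP LOF embryos, and Foxj3 mRNA by 0.28 in FOXJ3 LOF embryos (edgeR adjusted p = 0.861). Trim-Away acts on protein, which these counts do not measure.

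Promoter sequences were available here for 9 of the 10 genes, from RefSeq (GRCm38.p6, a window from 250 bases before to 50 bases after the RefSeq start). For 6 of them the 100 bases before the first annotated base of the gene lay in that window and held no annotated UTR. These are shown because TBP binds the core promoter, and they hold genes that fell in TBP LOF embryos (Supt4a, Supt5, Nelfb) beside genes that did not pass (Nelfa, Ccnt2, Hexim1). Capitals mark the GC box (GGGCGG), the CCAAT box and TATATA, each read on both strands. The fourth motif searched, TATAAA, is in none of the printed stretches. Each is written 5′ to 3′ on the strand of its gene.
Supt4a, chr11:87737452-87737551, forward strand: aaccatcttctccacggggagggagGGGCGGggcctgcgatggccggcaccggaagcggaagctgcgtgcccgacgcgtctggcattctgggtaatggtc
Supt5, chr7:28338747-28338846, reverse strand: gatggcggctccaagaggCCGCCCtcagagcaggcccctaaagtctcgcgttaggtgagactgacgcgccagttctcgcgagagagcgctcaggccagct
Nelfa, chr5:33936414-33936513, reverse strand: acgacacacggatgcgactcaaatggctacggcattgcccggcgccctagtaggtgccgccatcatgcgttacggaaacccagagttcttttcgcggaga
Nelfb, chr2:25211490-25211589, reverse strand: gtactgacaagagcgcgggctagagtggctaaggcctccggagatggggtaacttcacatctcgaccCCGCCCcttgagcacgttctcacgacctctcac
Ccnt2, chr1:127774064-127774163, forward strand: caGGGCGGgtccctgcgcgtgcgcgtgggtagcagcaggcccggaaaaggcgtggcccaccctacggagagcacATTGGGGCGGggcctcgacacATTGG
Hexim1, chr11:103116131-103116230, forward strand: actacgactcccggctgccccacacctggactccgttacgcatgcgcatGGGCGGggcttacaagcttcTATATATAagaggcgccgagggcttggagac

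The GC box GGGCGG, on either strand, was in the whole window of 8 of the 9 genes, all but Supt6, and in 35.6% of the 32817 windows of the table. For Cdk9, Ccnt1 and Nelfa every such match lay after the first annotated base of the gene, in Nelfa by 4 and 79 bases. TATATA was in the Hexim1 window alone, where the run in capitals begins 31 bases before the first annotated base, and in 5.67% of all windows. TATAAA was in the Nelfb window alone, 229 bases before the start, and in 13.6% of all windows. CCAAT was in 3 of the 9 windows (Cdk9, Ccnt2, Hexim1) and in 37.4% of all. The windows held 16 (Nelfb) to 39 (Cdk9) CpG, against a median of 7 over the table. The motif shares are over windows of any CpG content and were not worked out for windows as rich in CpG as these. These matches describe letters in a window, and no binding was measured here.

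In TBP LOF embryos 6 of the 10 genes fell, Ccnt1, Supt4a, Supt5, Nelfb, Nelfe and Supt6, and none rose (edgeR's quasi-likelihood test, Benjamini-Hochberg adjusted p under 0.05). Of all features tested, genes and transposable element families together, 29.7% were lower and 1.34% higher. The median log2 fold change of the 10 was -1.19, beside -0.70 for all genes tested. Supt4a, Nelfe and Ccnt1 did not overlap between the groups, a pattern that 6.69% of the features tested had with LOF lower. The other 4 genes, Cdk9, Ccnt2, Hexim1 and Nelfa, had log2 fold changes from -0.77 to -0.27 and did not pass. With edgeR's stricter filter on low counts 7 of the 10 genes passed as lower, Ccnt2 among them. Of the 8124 features which that filter kept, 4269 were lower and 123 higher, and the median over genes was -0.90. Relative to the other genes of the same embryos the picture narrowed: with TMM scaling only Ccnt1 (-0.94), Supt4a (-1.18) and Nelfe (-1.50) stayed past the threshold as lower and Nelfa became higher, where 12.7% of features were lower and 12.8% higher.

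**Figure D1:**
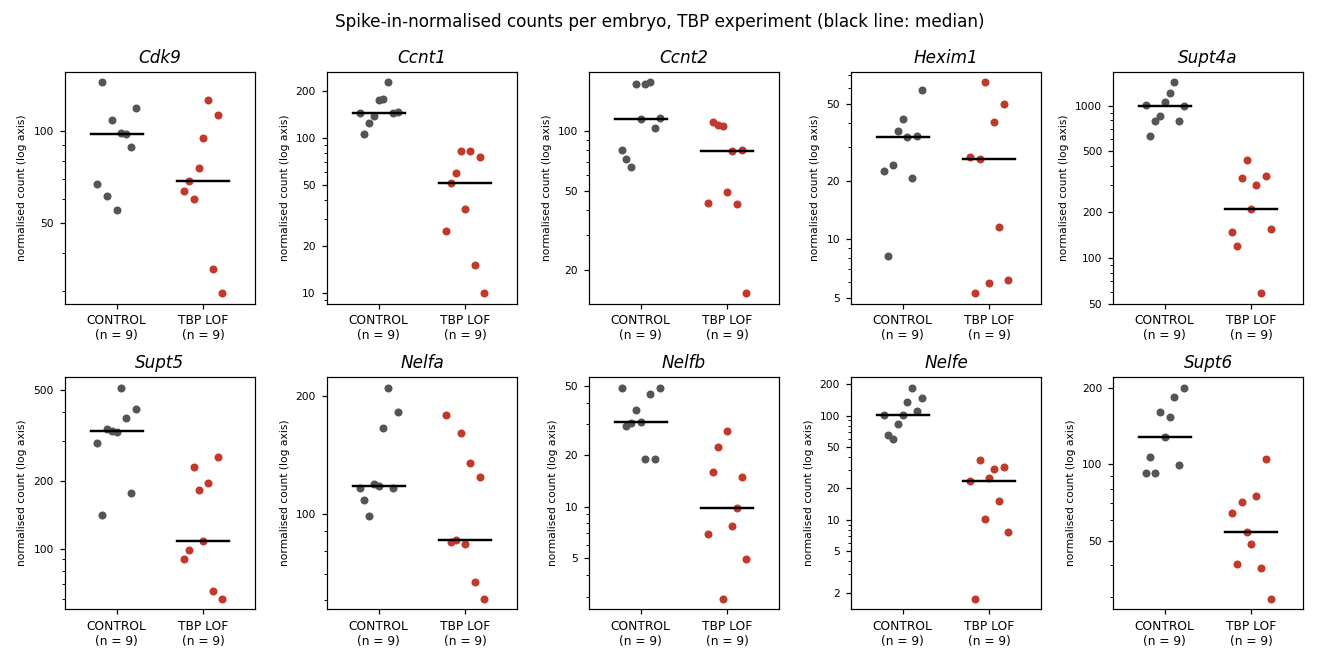
Spike-in-normalised counts (log axis) of the 10 genes in each embryo of the TBP experiment, grey for the 9 CONTROL and red for the 9 TBP LOF embryos, with a black line at the median. Ccnt1, Supt4a and Nelfe separate completely, whereas the groups overlap for the other 7 genes, and for Hexim1 every CONTROL point lies within the LOF range.

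P-TEFb is a kinase with exchangeable cyclins, and its parts moved unequally. Cdk9, the kinase (ENSMUSG00000009555.16, chr2:32705784-32713076, reverse strand), lay between 29.5 and 127 normalised counts in TBP LOF embryos (median 68.6) and between 55.3 and 144 in CONTROL embryos (median 98.0). The groups overlapped, with 2 of 9 LOF embryos below the lowest CONTROL embryo, and the log2 fold change of -0.34 (standard error 0.32) did not pass (edgeR adjusted p = 0.463). Ccnt1, which encodes cyclin T1, its main partner (ENSMUSG00000011960.12, chr15:98538689-98570923, reverse strand), lay between 9.95 and 82.7 (median 51.0) in LOF and between 107 and 228 (median 145) in CONTROL embryos. Every LOF embryo was below every CONTROL embryo, a 3.23-fold lower level (log2 fold change -1.69, standard error 0.34, edgeR adjusted p = 7.00e-05).

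Ccnt2, which encodes the alternative cyclin T2 (ENSMUSG00000026349.14, chr1:127774164-127808061, forward strand), lay between 15.2 and 111 (median 78.9) in LOF and between 65.6 and 175 (median 114) in CONTROL embryos. All 9 LOF embryos were below the CONTROL median but 5 were within the CONTROL range, and the log2 fold change of -0.77 (standard error 0.33) did not pass (edgeR adjusted p = 0.0684). That call sits at the edge: it passed with edgeR's stricter filter on low counts (adjusted p = 0.0478), without LOF embryo 2 (-0.87, edgeR adjusted p = 0.0481) and without LOF embryo 6 (-0.85, edgeR adjusted p = 0.0495), and its log2 fold change was 0.05 with TMM. Hexim1, the inhibitor (ENSMUSG00000048878.6, chr11:103116231-103119725, forward strand), lay between 5.28 and 64.4 (median 26.0) in LOF and between 8.21 and 58.6 (median 33.6) in CONTROL embryos. The LOF range took in the whole CONTROL range, and the log2 fold change was -0.27 (standard error 0.43, edgeR adjusted p = 0.699). With 214 reads in 9 LOF and 227 in 9 CONTROL embryos, Hexim1 was read thinly, and the 95% interval of its log2 fold change was -1.12 to 0.58.

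DSIF holds the polymerase at the pause and stays with it afterwards. Supt4a, the small zinc-finger subunit SPT4 (ENSMUSG00000020485.14, chr11:87737552-87743623, forward strand), lay between 58.6 and 437 (median 210) in LOF and between 627 and 1420 (median 986) in CONTROL embryos. No LOF embryo reached the lowest CONTROL embryo, and the level was 4.14-fold lower (log2 fold change -2.05, standard error 0.32, edgeR adjusted p = 8.16e-07). Supt5, the large subunit SPT5 that contacts NELF and is a target of CDK9 (ENSMUSG00000003435.9, chr7:28314891-28338746, reverse strand), lay between 60.6 and 255 (median 109) in LOF and between 141 and 513 (median 330) in CONTROL embryos. It fell 2.26-fold (log2 fold change -1.18, standard error 0.31, edgeR adjusted p = 0.00228) with 4 LOF embryos inside the CONTROL range. With TMM its log2 fold change was -0.32 (adjusted p = 0.318), so its fall exceeded the shift of the other genes of those embryos by less than the test could separate.

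NELF binds DSIF and the polymerase at the pause, and the log2 fold changes of its 3 subunits among the 10 genes ran from -2.42 to -0.34. Nelfe, which encodes the RNA-binding subunit (ENSMUSG00000024369.16, chr17:34850391-34856372, forward strand), lay between 1.76 and 37.1 (median 23.7) in LOF and between 59.1 and 185 (median 102) in CONTROL embryos. The groups did not overlap, and the 5.37-fold lower level was the largest change of the 10 (log2 fold change -2.42, standard error 0.37, edgeR adjusted p = 6.58e-07), on 200 reads in LOF and 846 in CONTROL embryos. Of all genes tested, thinly read ones included, 7.52% had a lower log2 fold change than Nelfe, against 13.3% for Supt4a and 21.4% for Ccnt1.

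Nelfb, a core scaffold subunit (ENSMUSG00000013465.19, chr2:25199712-25211489, reverse strand), lay between 2.93 and 27.5 (median 9.76) in LOF and between 18.9 and 49.0 (median 31.1) in CONTROL embryos. It fell 2.67-fold, with 7 of 9 LOF embryos below the lowest CONTROL embryo (log2 fold change -1.42, standard error 0.42, edgeR adjusted p = 0.00647), on 130 reads in LOF and 227 in CONTROL embryos. With TMM its log2 fold change was -0.42 (edgeR adjusted p = 0.448). Nelfa, the subunit that contacts the polymerase (ENSMUSG00000029111.7, chr5:33897916-33936413, reverse strand), lay between 60.6 and 180 (median 85.3) in LOF and between 98.4 and 210 (median 118) in CONTROL embryos. Of the LOF embryos 5 were below the lowest CONTROL embryo and 4 above the CONTROL median, and the log2 fold change was -0.34 (standard error 0.30, edgeR adjusted p = 0.426). With TMM it was 0.53 (adjusted p = 0.0484), a higher share of the transcripts of these embryos without a detected change in amount.

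Supt6 (ENSMUSG00000002052.6, chr11:78206746-78245987, reverse strand) lay between 29.5 and 105 (median 54.1) in LOF and between 91.9 and 200.2 (median 128) in CONTROL embryos. All but 1 LOF embryo were below the lowest CONTROL embryo, and the level was 2.31-fold lower (log2 fold change -1.21, standard error 0.31, edgeR adjusted p = 0.00146). With TMM it was -0.32 (adjusted p = 0.275). Genes on the opposite strand share exon bases with 4 of the 10 genes, and the sources used here do not say whether counting used strand. Their log2 fold changes in TBP LOF embryos were -1.66 for 9330020H09Rik at Ccnt1 (adjusted p = 0.000202), -1.39 for Sdf2 at Supt6 (adjusted p = 0.000584), -1.10 for Gm44709 at Supt5 (adjusted p = 0.0549) and -0.23 for Nsd2 at Nelfa (edgeR adjusted p = 0.675), close to those of the gene they overlap. Mir2861 and Mir3960 lie in exons of Cdk9 and were too low to be tested.

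**Figure D2:**
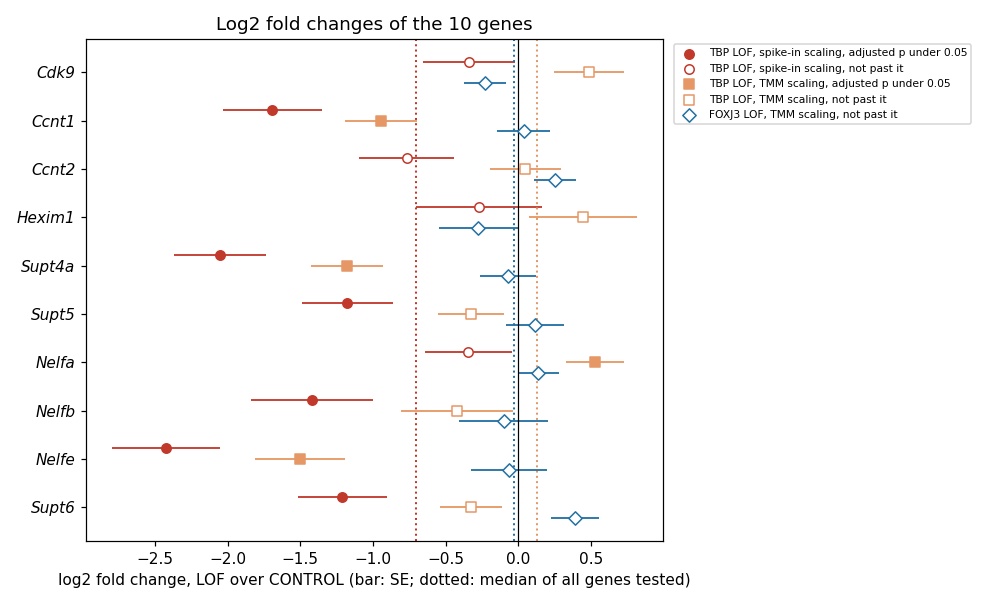
Log2 fold changes (LOF over CONTROL) of the 10 genes with their standard errors, red circles for TBP LOF with spike-in scaling, orange squares for TBP LOF with TMM and blue diamonds for FOXJ3 LOF, filled where the adjusted p was under 0.05; dotted lines give the median of all genes tested. Ccnt1, Supt4a and Nelfe stay well left of the median under both scalings of TBP LOF, and the FOXJ3 LOF values run from -0.27 to 0.39.

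The low values were spread over the TBP LOF embryos. In LOF embryos 7 to 10 of the 10 genes lay below their CONTROL median (median 10), and in CONTROL embryos 0 to 9 (median 3). The same count was not made over all features. All genes tested had a median log2 fold change of -0.70 on this scale, so the count is not particular to these genes. TBP LOF embryo 11, the most deeply sequenced of its group with 4166903 reads and 6.03% ERCC, had the lowest value of the group for 6 genes. Without it the same number of genes, 6, passed and log2 fold changes ran from -2.30 to -0.13, where 5275 of 19142 features were lower. Levels of the 9 late 2-cell marker genes found in the tables, summed, were also higher in TBP LOF embryos as a share of reads, 484 to 1231 rpm (reads per 1000000 counted reads; median 1043) against 238 to 789 (median 336), and 2 of the 9 passed as higher with spike-in scaling, where 1.34% of all features did. The 6 oocyte and maternal markers summed to a median of 3111 rpm in TBP LOF against 2476 rpm in CONTROL embryos. With spike-in scaling 1 of the 6 was lower and none higher, where 29.7% of all features were lower. With TMM 5 of the 9 late 2-cell markers and 4 of the 6 oocyte and maternal markers were higher, beside 12.8% of all features. In that fit 1 maternal marker was lower, beside 12.7% of all features. All 9 late 2-cell markers were read in each of the 4 groups, and blastocyst markers summed to medians of 4.10 to 5.91 rpm. Markers of cumulus and granulosa cells summed to medians of 3.32 rpm in LOF and 4.07 rpm in CONTROL embryos, with Has2 and Fshr at 0 in both. Of the 12, 5 could be tested, and 1 was lower with spike-in scaling and 1 higher with TMM, beside 29.7% and 12.8% of all features. The part of any of these in the results was not tested.

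A ratio of 2 genes within an embryo does not depend on the scaling. In TBP LOF embryos 4 of the 6 ratios tested differed from CONTROL (two-sided exact permutation tests, adjusted over 12 comparisons in both experiments). Ccnt1 is part of 2 of the 4, which are therefore not separate results. Ratios of other gene pairs were not tested, so the share of pairs that differ is not known. With TMM 12.7% of all features were lower and 12.8% higher. The log2 ratio of Ccnt1 to Cdk9 reads lay between -1.56 and 0.11 in LOF embryos and between -0.43 and 1.66 in CONTROL embryos, 6 of 9 LOF embryos being below the lowest CONTROL embryo. Its mean was -0.78 ± 0.62 (SD, n = 9) against 0.75 ± 0.61 (SD, n = 9), a ratio of 0.345 times that of CONTROL embryos (exact permutation test, p = 0.000247, adjusted p = 0.00148). Cyclin T1 transcripts were thus fewer per Cdk9 transcript read.

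Of the pair of cyclins, Ccnt2 to Ccnt1 moved the other way. Its log2 ratio lay between -0.07 and 1.47 in LOF and between -0.91 and 0.30 in CONTROL embryos, and 7 of 9 LOF embryos were above the highest CONTROL embryo. The ratio was 2.09 times that of CONTROL embryos (exact permutation test, p = 0.000206, adjusted p = 0.00148). Hexim1 to Cdk9 did not pass, with means of -1.86 ± 1.18 (SD, n = 9) and -1.66 ± 1.00 (SD, n = 9; exact permutation test, p = 0.718, adjusted p = 0.799).

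In DSIF, the log2 ratio of Supt4a to Supt5 lay between -0.16 and 1.36 in LOF and between 1.21 and 2.15 in CONTROL embryos, with 7 of 9 LOF embryos below the lowest CONTROL embryo. The ratio was 0.509 times that of CONTROL embryos (exact permutation test, p = 0.000494, adjusted p = 0.00197), so the small subunit fell further than the large one. In NELF, Nelfa to Nelfb lay between 1.58 and 5.47 in LOF and between 1.23 and 3.06 in CONTROL embryos. It rose 2.35-fold (exact permutation test, p = 0.0146, adjusted p = 0.0439), with 4 of 9 LOF embryos above the highest CONTROL embryo and 8 of 9 above the CONTROL median. Those 4, LOF embryos 1, 6, 8 and 11, had 5, 2, 4 and 17 Nelfb reads, so this ratio rests on thin counts. In the FOXJ3 experiment, rabbit IgG CONTROL embryo 3 of batch 1, with 3 Nelfb reads, reached 5.48. Nelfe to Nelfb was 0.481 times that of CONTROL embryos and did not pass after adjustment (exact permutation test, p = 0.0331, adjusted p = 0.0795). Its log2 difference of -1.06 was -0.65 without LOF embryo 2, which had 1 Nelfe read, and ran from -1.22 to -0.92 with each other embryo left out.

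**Figure D3:**
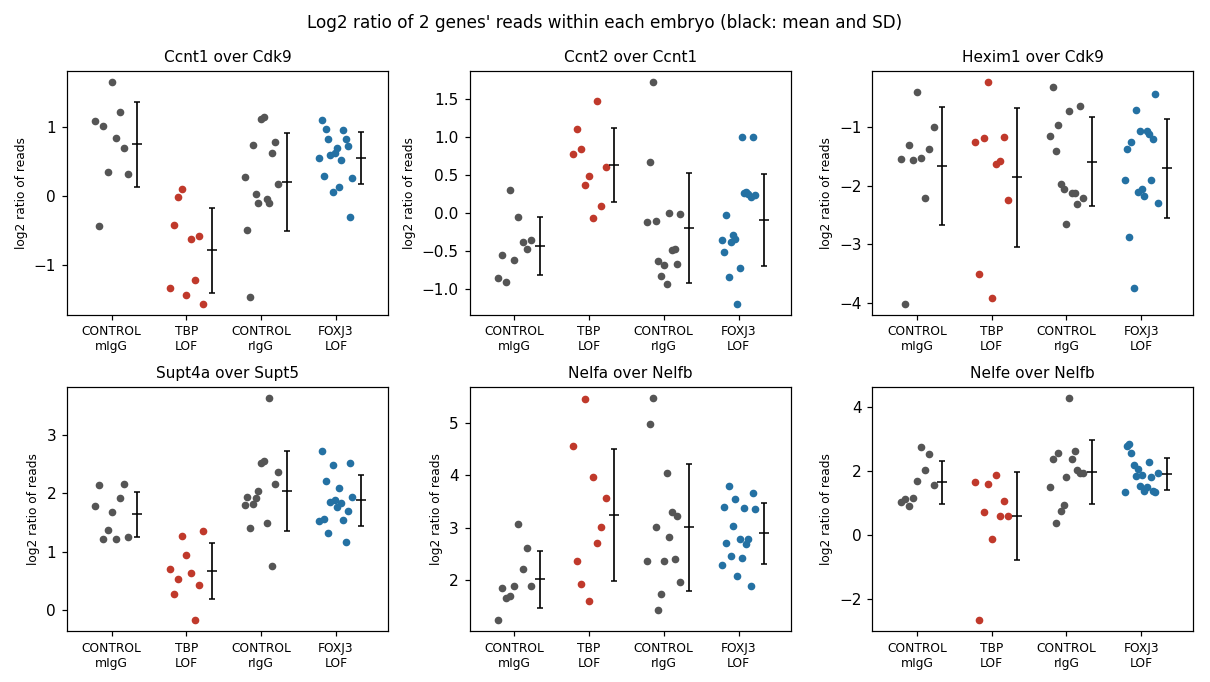
Log2 ratio of the reads of 2 genes in each embryo, in 6 panels, for CONTROL (mouse IgG), TBP LOF, CONTROL (rabbit IgG) and FOXJ3 LOF embryos, with the mean and SD in black beside each group. In the TBP experiment Ccnt1 over Cdk9 and Supt4a over Supt5 shift down and Ccnt2 over Ccnt1 shifts up, while the 2 groups of the FOXJ3 experiment share a range in every panel.

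The partners of these genes were read from a list of 39 further elongation genes. In TBP LOF embryos 23 of them were lower and none higher (edgeR's quasi-likelihood test), where 29.7% of all features were lower and 1.34% higher, and their median log2 fold change was -0.92 beside -0.70 for all genes tested. With TMM 7 of the 39 were lower and 3 higher, where 12.7% and 12.8% of all features were. With edgeR's stricter filter on low counts 31 of the 39 could be tested and 25 were lower, where 4269 of 8124 features were. Among the other members of the same complexes, Larp7, which stabilises the 7SK RNA (-2.09), Mepce, which caps it (-1.19), and Nelfcd, the remaining NELF subunit (-1.16), were lower. With TMM Larp7 stayed past the threshold (-1.32, edgeR adjusted p = 8.96e-05), whereas Mepce (-0.38, edgeR adjusted p = 0.324) and Nelfcd (-0.33, edgeR adjusted p = 0.401) did not pass. Neither Hexim2, the paralog of Hexim1 (-0.95, edgeR adjusted p = 0.310), nor Rn7sk, the 7SK RNA itself (0.74, edgeR adjusted p = 0.596), passed; Rn7sk is not polyadenylated, and the libraries were made from polyA RNA.

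By complex, beside the 29.7% of all features that were lower, 5 of 6 PAF1 complex genes were lower, 4 of 9 of the super elongation complex that carries P-TEFb to genes, 3 of 6 of TFIIS and elongin, 4 of 6 further kinases, readers and writers of the polymerase tail, 2 of 4 phosphatase and termination genes, and 2 of 3 genes of FACT and the SPT6 partner. With TMM these counts were 2 of 6, 1 of 9, 0 of 6, 1 of 6, 1 of 4 and 1 of 3, beside 12.7% of all features. The smallest adjusted p of the list were those of Wdr61, a PAF1 complex subunit (-2.60), Xrn2, the exonuclease of transcription termination (-2.15), and Larp7. With TMM, the median over the PAF1 complex genes was -0.87 and over the super elongation complex 0.04, where 1 of its 9 genes was higher. The 4 phosphatase and termination genes, Xrn2 among them, had the highest TMM median of these lists, 0.47, with 2 of the 4 higher, beside 12.8% of all features.

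**Figure D4:**
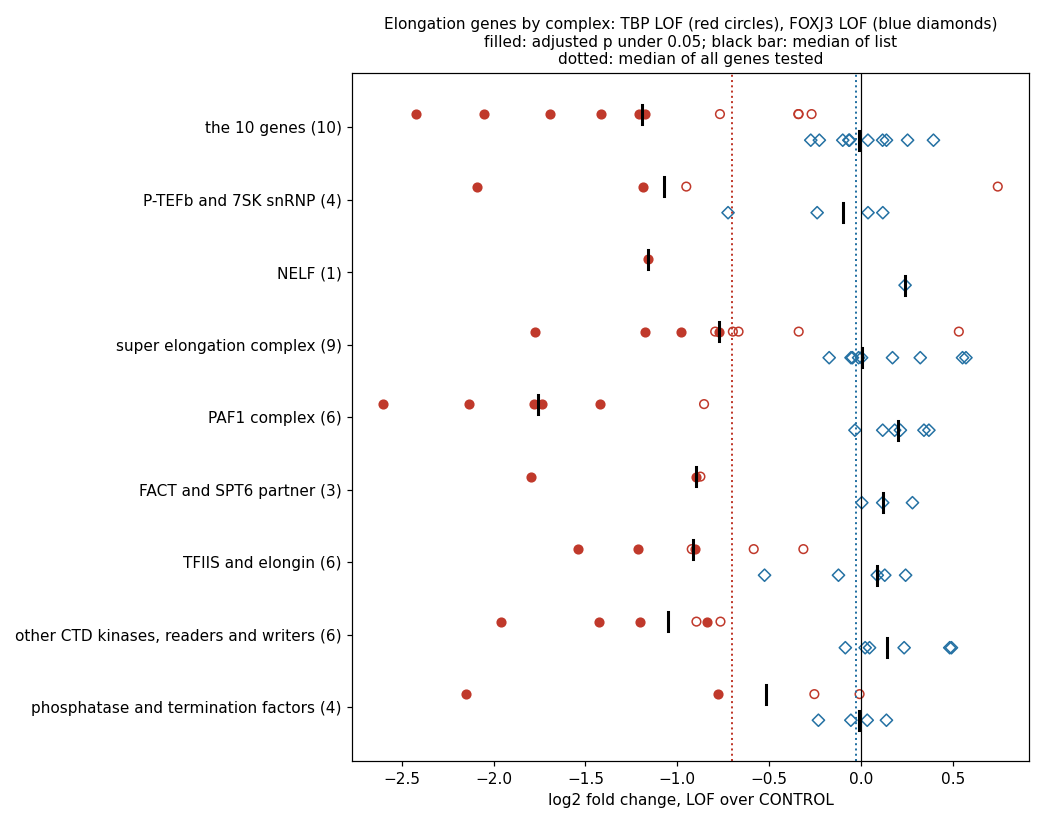
Log2 fold changes of the 10 genes and of 39 further elongation genes by complex (number of genes in brackets), red circles for TBP LOF and blue diamonds for FOXJ3 LOF, filled where the adjusted p was under 0.05; black bars are list medians and dotted lines the medians of all genes tested. PAF1 complex genes have the lowest median in TBP LOF embryos of the lists with more than 1 gene, -1.76, and no FOXJ3 LOF point is filled.

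In FOXJ3 LOF embryos none of the 10 genes passed (edgeR's quasi-likelihood test with batch as a covariate, TMM scaling). Of all features tested 0.0102% did, 1115 had an unadjusted p under 0.05, and of the 10 genes 1 did, Supt6. DESeq2 also called none of the 10. The median log2 fold change of the 10 was -0.01, and of the 39 further genes, 38 of them tested, 0.10 with none called.

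Supt6 lay between 74.2 and 171 normalised counts in FOXJ3 LOF embryos (median 118) and between 42.4 and 123 in CONTROL embryos (median 94.8). Of 16 LOF embryos 7 were above the highest CONTROL embryo, and the log2 fold change of 0.39 (standard error 0.16) did not pass (edgeR adjusted p = 0.813). The medians were 118.1 against 91.9 in batch 1 and 95.2 against 96.8 in batch 2, the wider gap being in batch 1. Ccnt2 lay between 81.7 and 176 (median 125) in LOF and between 73.8 and 133 (median 111) in CONTROL embryos, with 6 LOF embryos above the highest CONTROL embryo and a log2 fold change of 0.25 (standard error 0.15, edgeR adjusted p = 0.907).

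For Ccnt2 the wider gap was in batch 2, with medians of 151 against 91.0, and in batch 1 of 103 against 117. A term for a different LOF effect in batch 2 was 0.73 for this gene and did not pass (unadjusted p = 0.0104, edgeR adjusted p = 0.563 with 16 and 13 embryos), nor did it for any of the 10; of all features it passed for 0.0%. Cdk9 lay between 61.0 and 129 (median 91.6) in LOF and between 74.6 and 177 (median 101) in CONTROL embryos, with 3 of 16 LOF embryos below the lowest CONTROL embryo (log2 fold change -0.23, standard error 0.15, edgeR adjusted p = 0.916).

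The 3 genes that separated in the TBP experiment overlapped here. Ccnt1 lay between 78.7 and 188 (median 140) in LOF and between 33.2 and 215 (median 138) in CONTROL embryos, Supt4a between 405 and 1412 (median 822) and between 181 and 1661 (median 827), and Nelfe between 37.2 and 152 (median 86.9) and between 4.58 and 164 (median 94.2). Their log2 fold changes were 0.04, -0.07 and -0.06. The 95% intervals were -0.32 to 0.39 for Ccnt1, -0.44 to 0.31 for Supt4a and -0.57 to 0.44 for Nelfe. Hexim1 (-0.27), Supt5 (0.12), Nelfa (0.14) and Nelfb (-0.10) had adjusted p from 0.952 to 0.987, and the widest intervals of the 10 genes were those of Nelfb, -0.70 to 0.50, and Hexim1, -0.80 to 0.26.

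**Figure D5:**
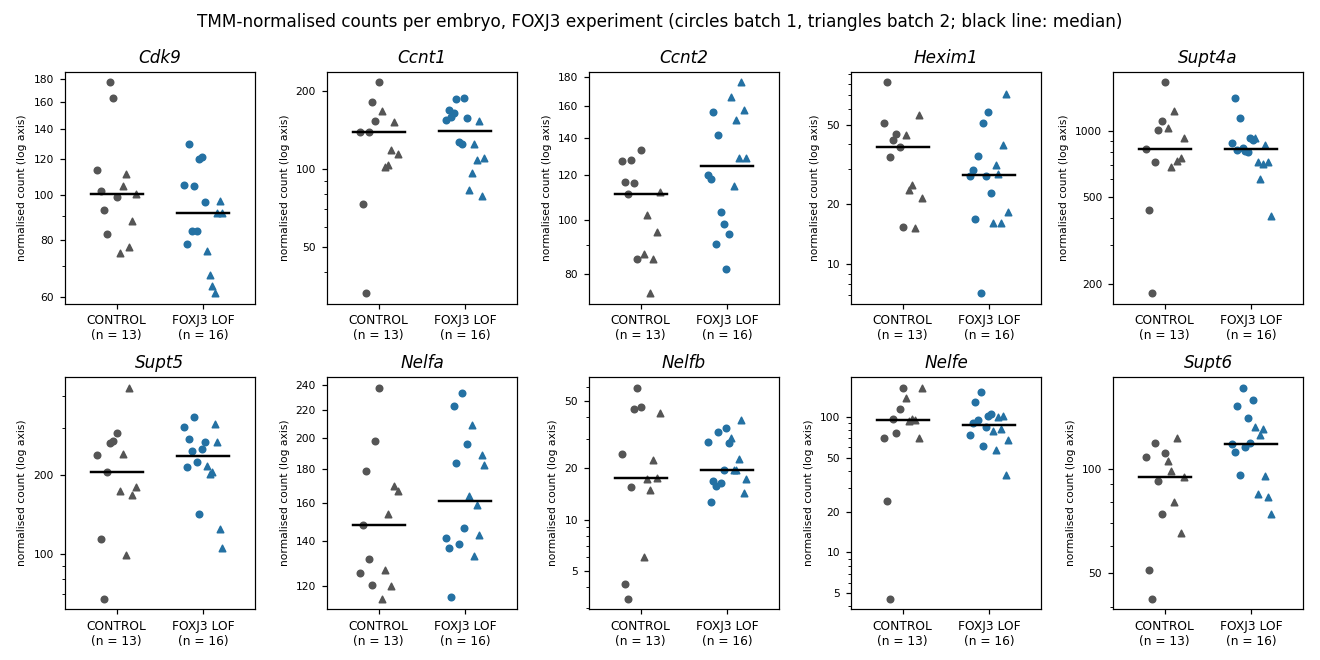
TMM-normalised counts (log axis) of the 10 genes in each embryo of the FOXJ3 experiment, grey for the 13 CONTROL and blue for the 16 FOXJ3 LOF embryos, circles for batch 1 and triangles for batch 2, with a black line at the median. The groups overlap for every gene, and 1 CONTROL embryo of batch 1 lies far below the others for Nelfe and Supt4a.

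That CONTROL embryo, number 3 of batch 1, had the lowest value of the 13 for 6 genes, Ccnt1 (33.2), Supt4a (181), Supt5 (67.5), Nelfb (3.43), Nelfe (4.58) and Supt6 (42.4), the 6 that passed in TBP LOF embryos. Its values of Cdk9 (92.7), Ccnt2 (111), Hexim1 (34.3) and Nelfa (179) lay inside the group, and it had 2214285 reads and 2.43% ERCC. Its late 2-cell markers summed to 1220 rpm, the highest of the 13 (median 631). CONTROL embryo 2 of batch 1 came next in the same direction. It had the second-lowest value for Ccnt1 (73.0), Supt4a (436), Nelfb (4.17), Nelfe (24.0) and Supt6 (51.1), the third-lowest for Supt5 (114), and the second-highest sum of late 2-cell markers (909 rpm). Without embryo 3 still none of the 10 genes passed in FOXJ3 LOF embryos, with log2 fold changes from -0.29 to 0.32, and without embryo 2 none passed either. That these are the same 6 genes was noticed after the values were seen, and no test was made of it.

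Within embryos of the FOXJ3 experiment, none of the 6 ratios differed (permutation tests with 100000 resamples, adjusted p from 0.211 to 0.879, and p from 0.110 to 0.880 when permuted within batches). Ccnt1 to Cdk9, which fell in TBP LOF embryos, had a mean of 0.55 ± 0.38 (SD, n = 16) in LOF and 0.21 ± 0.71 (SD, n = 13) in CONTROL embryos (permutation test, p = 0.106). Supt4a to Supt5 had means of 1.88 ± 0.44 (SD, n = 16) and 2.03 ± 0.68 (SD, n = 13; permutation test, p = 0.489). The mCherry-Trim21 transcript was lower in FOXJ3 LOF than in CONTROL embryos, by 1.00 on the log2 rpm scale (permutation test, p = 0.0117, adjusted p = 0.0351, and p = 0.0138 within batches), and with its level as a covariate none of the 10 genes passed.

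Between library batches of the FOXJ3 experiment, none of the 10 genes passed either (edgeR's quasi-likelihood test), where 0.482% of all features did; Cdk9 alone of the 10 had an unadjusted p under 0.05, with batch 2 over batch 1 at -0.37 (standard error 0.15, adjusted p = 0.269).

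The effects of TBP LOF and FOXJ3 LOF were compared directly in 1 fit of all 47 embryos with spike-in scaling. The TBP LOF effect was lower for 7 of the 10 genes (edgeR's quasi-likelihood test), where 28.0% of all features tested were lower and 0.911% higher. The log2 differences were -2.62 for Nelfe (standard error 0.50, adjusted p = 3.12e-05), -2.19 for Supt4a (standard error 0.38, adjusted p = 8.08e-06) and -1.97 for Ccnt1 (standard error 0.42, edgeR adjusted p = 0.000155). Supt6 (-1.77), Nelfb (-1.58), Supt5 (-1.46) and Ccnt2 (-1.17) passed as well, though Ccnt2 had not passed in TBP LOF embryos alone (-0.77). The difference also takes in the FOXJ3 LOF effect on the spike-in scale. In the FOXJ3 embryos fitted alone with that scaling, the median log2 fold change was 0.23 over the 10 genes and 0.15 over all genes. The difference of Nelfa was -0.69 (95% interval -1.40 to 0.02), of Cdk9 -0.31 (-1.07 to 0.44) and of Hexim1 -0.20 (-1.25 to 0.86). With TMM, where the median over all genes moved from -0.88 to 0.14, Nelfe, Supt4a, Ccnt1 and Supt6 stayed lower and Cdk9 passed as higher, with 0.73 (edgeR adjusted p = 0.0348), where 10.9% of features were lower and 10.7% higher.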

How the data were processed

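Smart-seq+5′ libraries of 49 single embryos were analysed. The authors mapped the 5′ reads to GRCm38 with STAR 2.7.11a and counted them with TEcount, and the deposited values are unnormalised counts per gene and estimated counts (expected counts) per transposable element family, all whole numbers. The strand setting and the sharing of multiply mapped reads, which could move overlapping genes, are not stated in the sources used here. Reads were not collapsed to molecules, so counting error alone understates the noise. The 10 genes and the lists were chosen with earlier results of these data known.

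Embryos with at least 500000 reads, at least 1000 genes, at most 10% mitochondrial and at most 15% ERCC reads were kept (47 of 49). Features read (minimum 1) in 25% or more of the embryos were tested with edgeR 4.0.16 (glmQLFTest, Benjamini-Hochberg over 19356 features for TBP, 19517 for FOXJ3 and 19657 for both), the authors having used DESeq2. TBP embryos were scaled by 42 ERCC transcripts read in every embryo, FOXJ3 embryos by TMM with batch as a covariate. Intervals are normal approximations from edgeR's standard errors. Ratios used a pseudocount of 0.5 reads; Python 3.11.15, numpy 2.4.6 and scipy 1.17.1 ran the permutation tests, and the tests were tried on simulated data. DESeq2 1.42.0, other scalings and filters, embryos left out in turn, a replicate block and the construct level as a covariate were alternatives. All 10 genes, the genes completing their complexes, the list genes with the smallest adjusted p, overlapping genes and the targets are named. Gene symbols came from gencode M21, 54723 of 54838. Embryos are replicates only as far as the labels separate them. Tables of single insertions were compared for the 10 genes, whose counts were equal in 19 of 19 embryos, and not used further.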

Additional observations from a re-analysis of the deposited data

Results flagged for a closer look

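In 38 groups of 9 values from the TBP experiment, 2 single embryos lay far from the others of their group, where chance alone flags about 1 in 20 groups. TBP LOF embryo 2 had a log2 Nelfe to Nelfb ratio of -2.66, the lowest of its group by a wide gap. CONTROL embryo 2 of the TBP experiment had a log2 Hexim1 to Cdk9 ratio of -4.01, the lowest of its group. The first rests on 1 Nelfe read and the second on 5 Hexim1 reads, and neither ratio was called.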

How the results depend on the processing

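Under 9 alternatives and with each of 18 embryos left out, 4 to 7 of the 10 genes passed in TBP LOF embryos. With an embryo left out, 5196 to 5986 of all features tested were lower, out of 18977 to 19165. With TMM or DESeq2's size factors 4 of the 10 genes passed, 3 lower and 1 higher. Those scalings remove the shift of most genes. With them Cdk9 was 0.49 and 0.50, Ccnt2 0.0501 and 0.0651, Hexim1 0.45 and 0.46, and Nelfa 0.53 and 0.56, each turned from negative. Of the 39 further genes 10 and 10 passed in place of 23. Of all 19356 features, 2451 were lower and 2486 higher with TMM. With DESeq2's size factors 2444 were lower and 2601 higher. The difference between both LOF effects turned with TMM for Cdk9 (0.73), Hexim1 (0.75) and Nelfa (0.40).

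In the FOXJ3 experiment none of the 10 genes passed under any of 13 alternatives or with any of 29 embryos left out, and the signs of small values turned. With ERCC scaling Supt4a was 0.13, Nelfb 0.14 and Nelfe 0.19. In batch 1 alone Ccnt2 was -0.0869, Supt4a 0.15 and Nelfe 0.32, and in batch 2 alone Ccnt1 was -0.23, Hexim1 0.0297, Supt5 -0.0823 and Nelfb 0.18. With the mCherry-Trim21 level as a covariate Ccnt1 and Supt5 were -0.0724 and -0.0667. With each embryo left out in turn, Ccnt1 ran from -0.0601 to 0.0989, Supt4a from -0.167 to 0.0433, Nelfb from -0.195 to 0.0597 and Nelfe from -0.189 to 0.0487. Batch differences turned in CONTROL embryos alone for Ccnt2 (-0.33), Supt4a (0.0715), Supt5 (0.0625), Nelfe (0.47) and Supt6 (0.15), and for Nelfe also without a filter (0.0039) and with DESeq2 (0.0068). The cause was not tested for any of these.

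The 4 ratios called in TBP LOF embryos had an unadjusted p under 0.05 with a pseudocount of 1, with all embryos and with at least 10 reads on both genes summed. So did Nelfe to Nelfb, which was not called (exact permutation test, p from 0.0158 to 0.0238). For the 4 called ratios every embryo of the TBP experiment that passed quality control reached that sum, so this setting repeated the main test. These alternatives were not adjusted over the 12 comparisons, so they show no call kept or gained. With each embryo left out in turn Hexim1 to Cdk9 ran from -0.491 to 0.0591 in the TBP experiment, and in the FOXJ3 experiment it ran from -0.205 to 0.0192, Nelfa to Nelfb from -0.252 to 0.0865 and Nelfe to Nelfb from -0.18 to 0.15. With all embryos Hexim1 to Cdk9 of the FOXJ3 experiment was 0.0250.

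In 7 same-numbered pairs of the TBP experiment the correlation of deviations from the group means ran from -0.06 to 0.14. It was highest at the own number in 0 of the 7. In 12 pairs of the FOXJ3 experiment it ran from -0.24 to 0.25 and was highest at the own number in 3 of 12. Matching by number cannot show collections that each held several embryos, and those were not tested. With the number as a replicate block 6 of the 10 genes passed in TBP LOF embryos and 0 in FOXJ3 LOF embryos, where Supt4a was 0.19, Nelfb 0.24 and Nelfe 0.12. Of all 19356 features in that TBP fit, 4717 were lower and 284 higher, and of 19517 in the FOXJ3 fit 0 passed. In TBP LOF embryos Nelfb, Nelfe and Hexim1 had 130, 200 and 214 reads over 9 embryos, the fewest of the 10 genes.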
